A study of Homo sapiens with 12 samples.

Results

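H3K27me3 was followed at 38 genes for receptor subunits of glutamate, GABA and glycine, out of 19103 autosomal protein-coding genes. The 38 genes were taken by name from a list of receptor genes that was made with earlier results of these data in view: 3 AMPA, 5 kainate, 7 NMDA and 7 metabotropic glutamate receptor genes, 10 GABA-A and 3 GABA-A rho subunit genes and 3 glycine receptor genes. The cells were SH-SY5Y, a human neuroblastoma line, either Tau expressing (WT) or from one of a pair of knock-out (Tau-KO) lines, 231K or 232P, where the Tau gene MAPT was knocked out. Each of the 3 genotypes had 2 biological replicates with 1 peak list each, so that all values come from 6 lists, and each Tau-KO line stands for a single line. The question of the comparison was whether H3K27me3 differs in cells without Tau. No peak overlapped MAPT or the 1 kb around it in any list, so the lists hold no check of the knock-out. Single peaks in the lists labelled 232P carry names starting in 231P, and the study has a separate Tau-KO line of that name. The samples are called 232P here as labelled, and which of these lines the values of 232P belong to could not be checked.

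Receptors for glutamate, GABA and glycine carry most of the fast signalling between neurons. AMPA, kainate and NMDA receptors are cation channels opened by glutamate, and metabotropic receptors couple glutamate to G proteins. GABA-A and glycine receptors are chloride channels. H3K27me3 is laid down on histone H3 by the Polycomb complex PRC2 and is found at genes that a cell type keeps silent, often at starts rich in CpG dinucleotides and, in wide domains, over whole genes. A peak here is a stretch where MACS found more precipitated reads than in the local background. TSS mark means here a peak that touches the stretch from 1 kb before to 1 kb after any annotated transcription start of the gene, and the covered length is the number of bases of a gene, with 1 kb on each side, that lay in peaks.

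The receptor genes ranged from marked in every list to free of peaks, and the kainate, metabotropic, GABA-A and glycine classes held genes of both kinds. A TSS mark was present in all 6 lists at 13 of the 38 genes (34.2%), beside 10.8% of all genes. With only peaks of -log10 q-values from 5 upwards, 3 receptor genes (7.89%) were marked in all lists, beside 2.87% of all genes, and where 50% of a TSS window had to be covered, 5 (13.2%), beside 3.07%. The 13 genes were GRIK1 and GRIK3 for kainate subunits, GRIN2A, GRIN2B and GRIN3A for NMDA subunits, GRM5 for a metabotropic receptor, GABRA2, GABRA4, GABRA6, GABRB1, GABRB2 and GABRG1 for GABA-A subunits and GLRA1 for a glycine receptor subunit. Another 13 genes had a TSS mark in 1 to 5 lists, beside 1680 of all 19103 genes. GRIN2D and GRIK5 had peaks elsewhere in the gene and none at a start. The remaining 10 genes had no peak in any list, beside 75% of all genes: GRIA1, GRIK2, GRIK4, GRM7, GABRD, GABRP, GABRR1, GABRR2, GABRR3 and GLRB. Since the list was not made blind to these data, the shares are descriptions.

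Promoter sequences are shown for 4 receptor genes, since CpG content is a feature of the start that the choice of genes did not use. The 4 are the extremes of CpG content: GABRA4 and GABRG1, with the highest and the lowest observed to expected CpG ratio among the 10 genes marked within 1 kb of the main (Ensembl canonical) start in all lists that had a promoter in RefSeq (GRCh38.p14), and GLRB and GABRP, with the highest and the lowest of the 9 genes without any peak. GABRG1 and GLRB were added after the values were seen. Each is the stretch just upstream of the start, 5′ to 3′ on the strand of the gene, with CpG dinucleotides in capitals.
GABRA4 (chr4:46993582-46993722, reverse strand): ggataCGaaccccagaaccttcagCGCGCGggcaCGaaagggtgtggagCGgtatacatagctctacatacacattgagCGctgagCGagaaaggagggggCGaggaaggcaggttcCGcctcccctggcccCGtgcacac
GABRG1 (chr4:46124055-46124304, reverse strand): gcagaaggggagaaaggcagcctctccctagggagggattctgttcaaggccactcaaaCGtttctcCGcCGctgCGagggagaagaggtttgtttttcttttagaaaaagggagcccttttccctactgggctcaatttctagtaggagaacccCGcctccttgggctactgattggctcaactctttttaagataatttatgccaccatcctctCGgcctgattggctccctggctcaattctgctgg
GLRB (chr4:157075900-157076124, forward strand): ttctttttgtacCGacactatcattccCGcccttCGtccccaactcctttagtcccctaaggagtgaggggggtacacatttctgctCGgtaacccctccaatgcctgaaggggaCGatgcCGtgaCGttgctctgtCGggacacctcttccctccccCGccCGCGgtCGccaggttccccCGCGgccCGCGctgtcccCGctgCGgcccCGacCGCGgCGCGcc
GABRP (chr5:170783475-170783690, forward strand): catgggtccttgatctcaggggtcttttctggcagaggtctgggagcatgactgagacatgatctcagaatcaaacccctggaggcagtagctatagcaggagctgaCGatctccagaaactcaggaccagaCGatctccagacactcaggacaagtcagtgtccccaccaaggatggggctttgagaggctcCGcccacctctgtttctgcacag
The GABRA4 stretch holds 11 CpG in 141 bases and that of GABRG1 6 in 250 bases. The GLRB stretch holds 23 in 225 bases and that of GABRP 3 in 216 bases. Over the 300 bases of the RefSeq promoters, the ratio was 0.988 for GABRA4, 0.342 for GABRG1, 1.03 for GLRB and 0.213 for GABRP. Marked and unmarked genes thus each included a start rich and a start poor in CpG. The median ratio was 0.787 in the 10 genes marked at the main start and 0.448 in the 9 genes without a peak. GABRA6 and GRIN2A, whose TSS marks in all lists were not all within 1 kb of the main start, are not among the 10 and had ratios of 0.214 and 0.376.

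**Figure D1:**
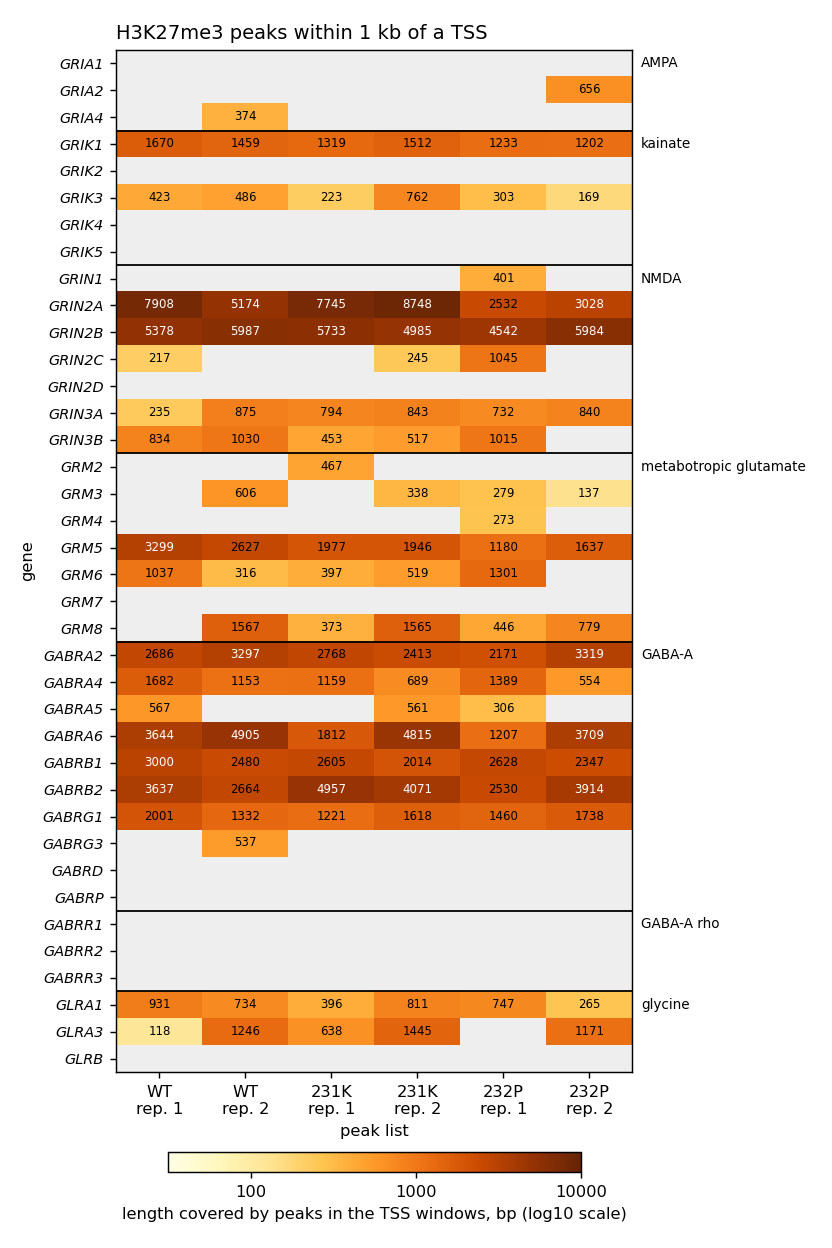
Length covered by H3K27me3 peaks in the TSS windows (1 kb on each side of every annotated start) of the 38 receptor genes, in bp, with 1 column per peak list and genes ordered by receptor class. Grey cells had no peak; 13 genes are coloured in all 6 columns and the 3 rho genes in none.

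The kainate receptor genes ranged from wide cover to none. GRIK1 (chromosome 21, 29536933 to 29940033, hg38), for a subunit that forms channels by itself, had 32.0% and 45.0% of its length in peaks in the first and the second WT list, 31.8% and 47.6% in 231K, and 10.3% and 32.2% in 232P. At its starts, the covered length was 1670 and 1459 bp in WT, 1319 and 1512 bp in 231K, and 1233 and 1202 bp in 232P. The marks at the starts thus differed much less between the lists than the cover of the whole gene. GRIK2 (chromosome 6, 100962701 to 102081622), the gene of another channel-forming kainate subunit and the longest of the 38 with 1119 kb, had no peak in any list. Its start lay 899 to 906 kb from the nearest peak in the 6 lists. GRIK4 and GRIK5 encode subunits that join GRIK1 to GRIK3 products in mixed channels. GRIK4 had no peak, and GRIK5 had short peaks inside the gene in 231K replicate 1 (0.421 kb) and 232P replicate 1 (0.256 kb). GRIK5 overlaps ZNF574, part of which lies in the TSS windows of GRIK5. The 2 peaks lay outside these windows, 69.3 kb or more from the main start of GRIK5.

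Of the NMDA receptor genes, GRIN2B and GRIN2A, for regulatory subunits that bind glutamate, were the most covered. GRIN2B (chromosome 12, 13437942 to 13982002) had 45.4% and 55.5% of its length in peaks in WT, 45.7% and 61.1% in 231K, and 13.3% and 45.0% in 232P. It was the most covered of the 38 genes, with a median of 45.6%, which is the percentile 93.2 of all genes. Its starts had 5378 and 5987 bp in peaks in WT, 5733 and 4985 bp in 231K, and 4542 and 5984 bp in 232P. At these starts the groups overlapped, and even 232P replicate 1, the list with the shortest cover of the gene, was close to the other lists. The 100 kb on each side of GRIN2B were covered to a median of 42.2%, so its peaks were part of a region wider than the gene. The strongest peak at a start of GRIN2B had a fold enrichment over background of 6.75 and 7.57 in WT, 7.79 and 7.92 in 231K, and 6.23 and 6.18 in 232P.

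GRIN2A (chromosome 16, 9753404 to 10182928) had the longest covered TSS windows, with 7908 and 5174 bp in WT, 7745 and 8748 bp in 231K, and 2532 and 3028 bp in 232P. Both 232P values lay below all others. None of this lay within 1 kb of the main (Ensembl canonical) start, where the nearest peak was 1.04 to 1.77 kb away in the 6 lists, and the marks of GRIN2A were at others of its 19 annotated starts. Of the whole gene, 32.6% and 33.5% were covered in WT, 31.5% and 38.0% in 231K, and 8.97% and 20.3% in 232P. GRIN3A, for a glycine-binding subunit that lowers the calcium flow of the channel, had 1 peak at its starts in every list, and all 6 of these peaks lay upstream of the main start. They covered 235 and 875 bp of the TSS windows in WT, 794 and 843 bp in 231K, and 732 and 840 bp in 232P. The peak itself reached a width of 10476 bp in WT replicate 2, so most of it lay beyond the window. Of GRIN3A as a whole, only 2.04 to 4.90% were covered.

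The gene of the obligatory NMDA subunit, GRIN1, had a TSS mark only in 232P replicate 1, with 401 bp, and no peak in the other lists. GRIN2D (chromosome 19, 48393668 to 48444931) had no mark at its single annotated start, where the nearest peak was 41.6 to 43.5 kb away, and 2 or 3 peaks further down the gene in every list. They covered 2.04% and 6.79% of the gene in WT, 2.43% and 3.35% in 231K, and 1.07% and 6.21% in 232P. GRIN2C had a TSS mark in 3 lists and GRIN3B in 5. The windows of GRIN2C overlap part of the gene FDXR, and GRIN3B overlaps TMEM259.

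The AMPA receptor genes were the least marked of the glutamate classes. GRIA1 had no peak in any list. GRIA2, for the subunit that sets calcium permeability, had a TSS mark of 656 bp in 232P replicate 2 and no peak elsewhere. GRIA4 had a TSS mark of 374 bp in WT replicate 2 and a peak inside the gene in 231K replicate 2 (0.286 kb). A mark in 1 of 6 lists does not differ from the spread between replicates.

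GRM5, for a receptor of the group that couples to phospholipase C, was the metabotropic gene with a TSS mark in all lists. GRM5 (chromosome 11, 88504576 to 89065982) had 20.7% and 30.8% of its length in peaks in WT, 18.4% and 35.7% in 231K, and 3.85% and 26.1% in 232P. Its starts had 3299 and 2627 bp in peaks in WT, 1977 and 1946 bp in 231K, and 1180 and 1637 bp in 232P. At the starts of GRM5, all 4 Tau-KO values lay below both WT values, and over the whole gene the groups overlapped. GRM5 was the 1 receptor gene of 26 with any TSS mark for which this held, beside 10.7% of all such genes, a comparison made after the values were seen. The peaks of GRM5 ended near the gene, since the 100 kb on each side were covered to a median of 2.13%.

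The other metabotropic genes encode receptors that lower cyclic AMP. GRM8 had a TSS mark in 5 lists, with 0 and 1567 bp in WT, 373 and 1565 bp in 231K, and 446 and 779 bp in 232P. None lay within 1 kb of the main start. GRM6, which serves the bipolar cells of the retina, had 1037 and 316 bp in WT, 397 and 519 bp in 231K, and 1301 and 0 bp in 232P. GRM3 had a mark in 4 lists, and GRM2 and GRM4 in 1 list each. GRM7 (chromosome 3, 6770001 to 7741533), the second longest of the 38 genes with 972 kb, had no peak in any list, and the nearest peak was 122 to 169 kb from its main start. Among genes of 200 kb or more, 8 of 16 receptor genes had a TSS mark in all lists, beside 17.8% of all genes of that length, and 4 of 16 had no peak, beside 53.6%. Among shorter genes, 5 of 22 had a TSS mark in all lists, beside 10.2%, and 6 of 22 had no peak, beside 76.7%.

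GABA-A receptors are built of 5 subunits, most often of alpha, beta and gamma type, whose genes lie in clusters. The cluster on chromosome 4 (46035769 to 47426447) holds GABRG1, GABRA2, GABRA4 and GABRB1 in 1391 kb, and all 4 genes had a TSS mark in all lists. Its span was covered to 12.3% and 21.6% in WT, 14.5% and 23.4% in 231K, and 2.91% and 17.7% in 232P. The second cluster was represented by GABRB2 and GABRA6 on chromosome 5 (161288429 to 161702593), which overlap at their upstream ends and share part of their marks. The main start of GABRA6, at 161685721, lies away from this overlap and from the main start of GABRB2, at 161546725. There the cover was 18.8% and 31.5% in WT, 17.8% and 27.6% in 231K, and 2.81% and 22.8% in 232P. The GABRA5 and GABRG3 pair on chromosome 15 (26866911 to 27541984) was nearly free of peaks, with 0.114% and 0.111% in WT, 0% and 0.0831% in 231K, and 0.0453% and 0% in 232P. The lowest cover of a marked cluster, 2.81% in 232P replicate 1, was above the highest of the pair.

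**Figure D2:**
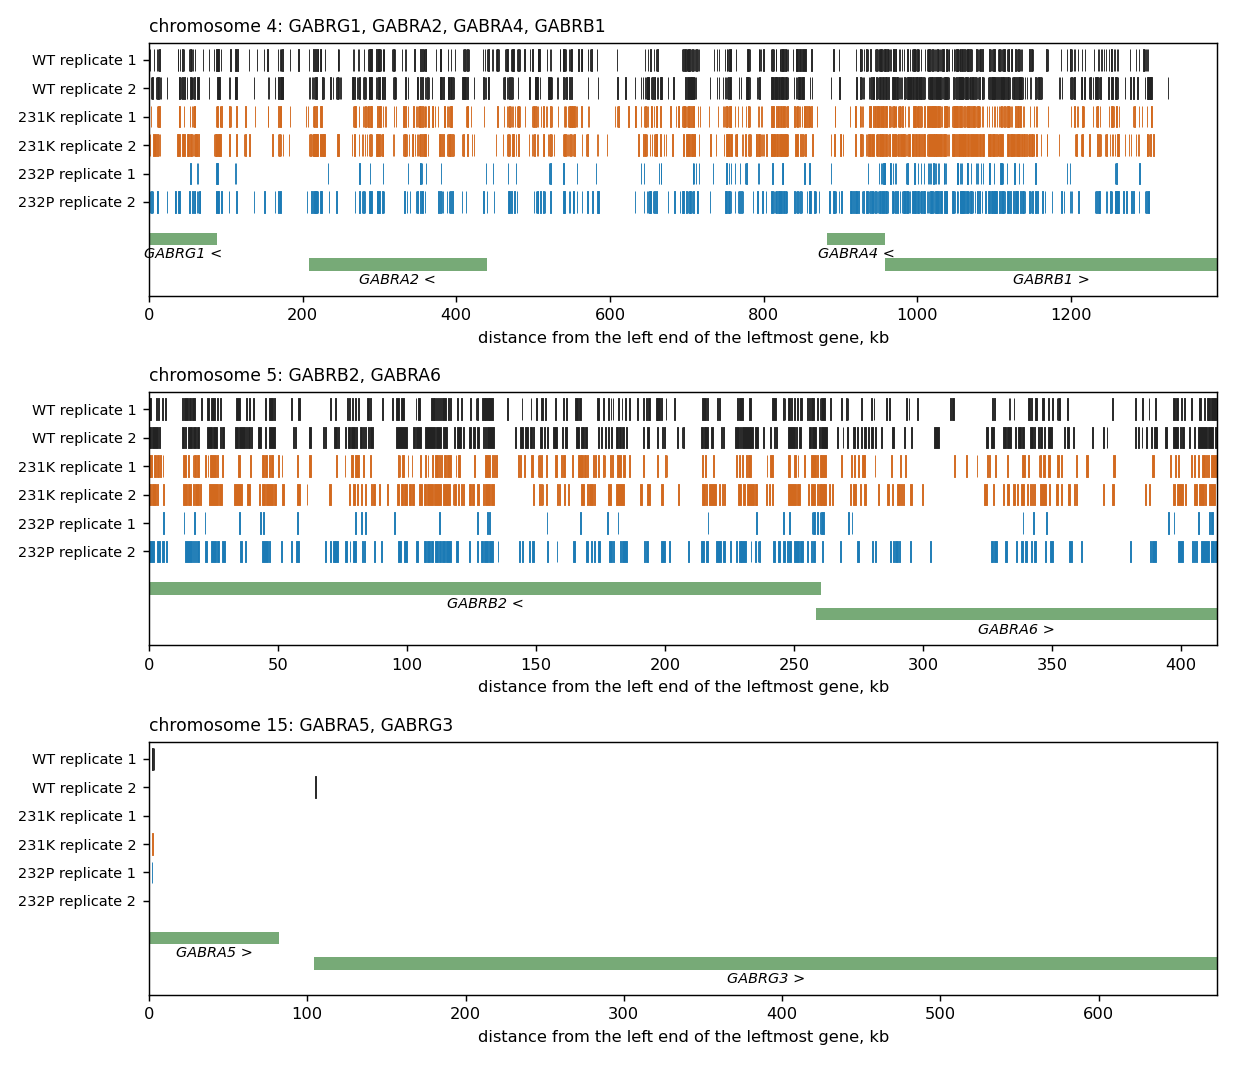
H3K27me3 peaks (bars, with a thin outline that widens narrow ones) in the 6 peak lists over 3 groups of neighbouring GABA-A subunit genes, by distance in kb from the left end of the leftmost gene; green boxes are the genes and > or < their direction. Peaks are scattered over the groups on chromosomes 4 and 5 in all lists, most thinly in 232P replicate 1, and nearly leave out GABRA5 and GABRG3.

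Within the chromosome 4 cluster, peaks were densest over GABRA4 and GABRB1. GABRB1, for a beta subunit, had 16.7% and 29.3% of its length in peaks in WT, 18.0% and 31.6% in 231K, and 4.85% and 24.4% in 232P. Its starts had 3000 and 2480 bp in peaks in WT, 2605 and 2014 bp in 231K, and 2628 and 2347 bp in 232P. GABRA4 and GABRB1 are read in opposite directions, and another start of GABRB1 than its main one neighbours GABRA4, so their TSS windows share peaks. The main start of GABRB1, at 47031567, lies apart from that of GABRA4, at 46993581. It had a mark of its own in all 6 lists. GABRA2, for an alpha subunit of synaptic receptors, had 2686 and 3297 bp at its starts in WT, 2768 and 2413 bp in 231K, and 2171 and 3319 bp in 232P. GABRG1, for a gamma subunit, had 2001 and 1332 bp in WT, 1221 and 1618 bp in 231K, and 1460 and 1738 bp in 232P. In these 3 genes the WT and Tau-KO values at the starts overlapped.

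GABRB2, for the beta subunit common in adult brain, had 22.5% and 35.2% of its length in peaks in WT, 21.1% and 32.1% in 231K, and 3.35% and 26.8% in 232P. Its starts had 3637 and 2664 bp in peaks in WT, 4957 and 4071 bp in 231K, and 2530 and 3914 bp in 232P. GABRA6, for an alpha subunit known from cerebellar granule cells, had 3644 and 4905 bp in WT, 1812 and 4815 bp in 231K, and 1207 and 3709 bp in 232P. The list with the least at GABRA6 was again 232P replicate 1. GABRD and GABRP, for subunits of receptors outside synapses and outside the brain, had no peak. The 3 rho genes, known from the retina, had none either, and GABRR1 and GABRR2, neighbours on chromosome 6, lay 616 to 1275 kb from the nearest peak at their main starts. GABRR3 had a different setting, with peaks 19.6 to 41.6 kb from its start and 12.9% of its flanks covered.

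Of the glycine receptor genes, 1 was marked in all lists, 1 in 5 lists and 1 in none. GLRA1 (chromosome 5, 151822513 to 151924851), for the adult alpha subunit, had a TSS mark in all lists and 26.7% and 35.0% of its length in peaks in WT, 21.5% and 42.7% in 231K, and 5.56% and 21.6% in 232P. GLRA3, for another alpha subunit, had 118 and 1246 bp at its starts in WT, 638 and 1445 bp in 231K, and 0 and 1171 bp in 232P. The windows of GLRA3 overlap part of the gene ADAM29. GLRB (chromosome 4, 157076125 to 157172090), for the beta subunit that anchors the receptor at synapses, had no peak, and the nearest one was 103 to 113 kb away.

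**Figure D3:**
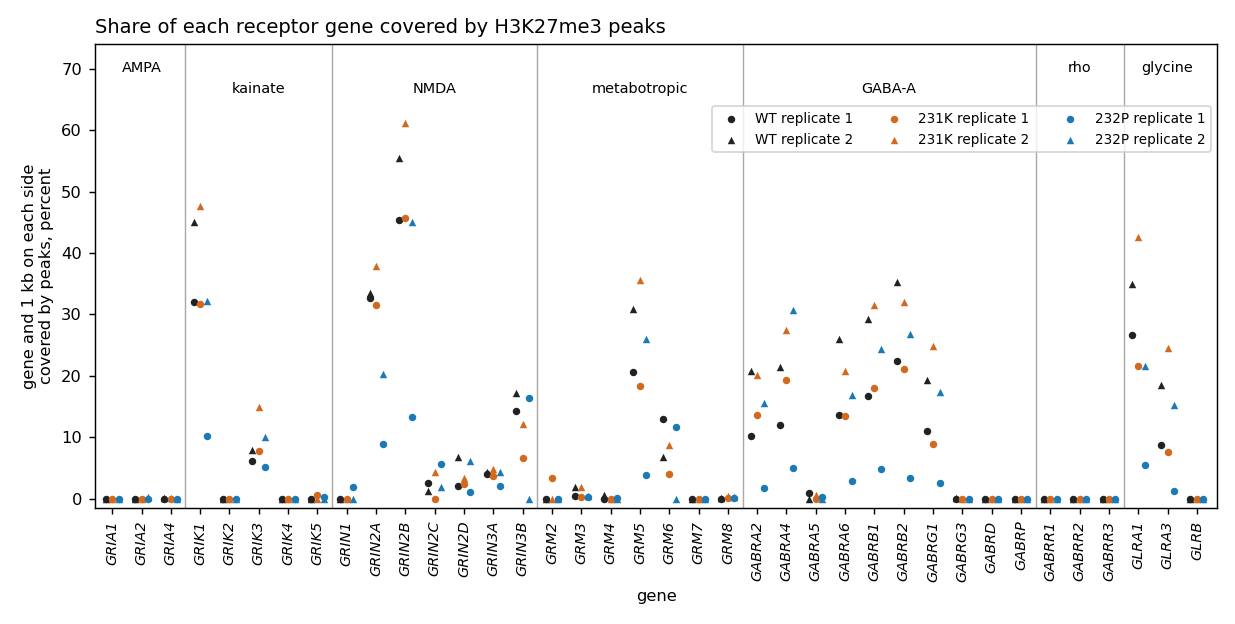
Percent of each receptor gene, with 1 kb on each side, that lay in H3K27me3 peaks; 1 point per peak list, coloured by genotype, with circles for replicate 1 and triangles for replicate 2. GRIN2B stands highest in 5 of the 6 lists, and at GRIN2B, GRIK1, GRM5 and GABRB2 the 232P replicate 1 point is the lowest.

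The surroundings of the genes with a TSS mark in all lists were set beside those of the genes with no peak. The median cover of the 100 kb on each side was 20.0% for the 13 genes with a mark (2.13 to 42.2%) and 0% for the 10 genes without a peak (0 to 12.9%). These groups were formed by peaks in the gene, which adjoins the flanks, so the flanks are no independent measure. Some flanks also lie in other marked receptor genes, as with GABRB2 and GABRA6 or GABRA4 and GABRB1. No value for all genes is at hand. The median CpG ratio in the 2 kb around the main start was 0.621 and 0.471, with ranges of 0.257 to 0.841 and 0.178 to 0.738 that largely overlap. At the low end of the marked genes stood GABRA6 with 0.257, and GRIK3 had the highest with 0.841. Over all 38 genes the median CpG ratio was 0.632, near the 0.640 of all genes. The receptor genes were also longer than other genes, with a median of 162 kb against 27.9 kb.

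**Figure D4:**
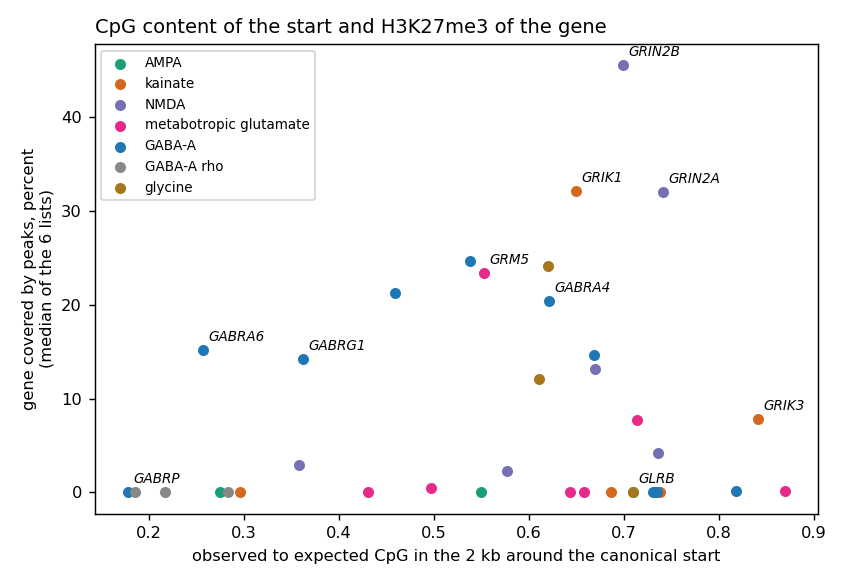
Median percent of each of the 38 receptor genes covered by H3K27me3 peaks in the 6 lists (vertical axis) against the observed to expected CpG ratio in the 2 kb around its canonical start (horizontal axis), coloured by class. Genes with no cover lie along the bottom at ratios from 0.178 upwards, next to covered genes of like ratio such as GABRA6 at 0.257.

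At the main start itself, fewer bases lay in peaks than 600 to 1000 bp upstream of it. A mark within 1 kb of it was present in all lists at 11 of the 38 genes, beside 8.4% of all genes, and in no list at 16, beside 82.8%. Of these 11 receptor genes, 6 had the start base in a peak in no list: GRIK3, GRIN2B, GRIN3A, GRM5, GABRA2 and GABRA4. GABRB1 and GABRG1 had it in a peak in all lists. Among all 1604 genes with such a mark, 37.5% had the start base in a peak in no list and 13.0% in all. Within 200 bp of the start of the 11 genes, 39.4% and 38.6% of the bases lay in peaks in WT, 31.2% and 30.4% in 231K, and 34.8% and 23.0% in 232P. Between 1000 and 600 bp upstream, 89.3% and 83.7% did so in WT, 80.4% and 89.1% in 231K, and 48.6% and 74.6% in 232P. Between 600 and 1000 bp downstream, it was 51.7% and 43.2% in WT, 45.3% and 40.9% in 231K, and 35.2% and 35.2% in 232P. The cover was thus lower at the start than 600 to 1000 bp upstream in all 6 lists. Downstream the gap was smaller, and nearly absent in 232P replicate 1. Between 2 and 5 kb upstream, the cover was 39.2% and 51.4% in WT, 29.3% and 59.1% in 231K, and 7.22% and 42.0% in 232P. In replicate 1 of each genotype this was below the cover at the start, and in replicate 2 above it. The difference at 600 to 1000 bp upstream was present also in all genes with such a mark (32.1 to 48.9% within 200 bp and 43.8 to 82.6% upstream). The genes were selected for a peak within 1 kb of the start, and a peak reaching in from outside meets the edge of that stretch first. The selection can thus favour cover at 600 to 1000 bp. The 1604 genes share it and are no control for it. At GRIK3, the peak began 0.515 kb or more upstream of the start in every list.

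**Figure D5:**
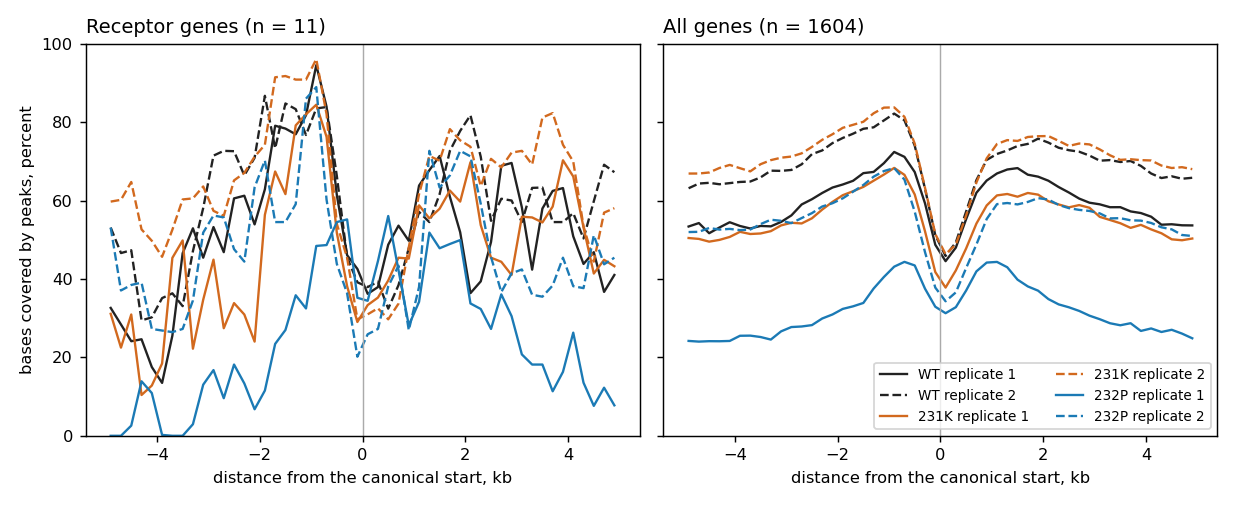
Percent of bases in H3K27me3 peaks by distance in kb from the canonical start (negative is upstream, 200 bp bins), for the 11 receptor genes with a mark there in all lists (left) and for all 1604 such genes (right); colour is genotype, solid lines replicate 1 and dashed lines replicate 2. Every line is lower at the start than 600 to 1000 bp upstream.

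The strength of the marks was described by the fold enrichment of the strongest peak at a start. In the 13 genes marked in all lists its median was 5.74 and 6.30 in WT, 6.56 and 6.25 in 231K, and 5.47 and 5.22 in 232P. The median -log10 q-value was 6.60 and 7.60 in WT, 7.94 and 7.84 in 231K, and 4.56 and 5.11 in 232P. The median height of these peaks was 14 and 15 reads in WT, 15 and 14 in 231K, and 11 in both 232P lists. The fold enrichment and the q-value depend on the depth of each list, and the 232P lists had 68.1% and 56.9% of the depth of WT replicate 1, 231K had 94.8% and 68.7%, and WT replicate 2 had 66.6%. The part of depth in these differences was not tested. The weakest of the marks present in all lists was that of GRIK3 in 232P replicate 2, with a fold enrichment of 3.21.

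On average, as many receptor genes had a TSS mark in each genotype. The number was 18 and 20 in WT, 18 and 20 in 231K, and 21 and 17 in 232P, or 19 ± 1.41, 19 ± 1.41 and 19 ± 2.83 (SD, n = 2). No gene marked in both WT lists lost its mark in both 231K lists, and none lost it in both 232P lists (0 of 16 each). The background was 2.13% of 2822 genes lost in 231K and 5.42% in 232P. No gene unmarked in WT gained a mark in both lists of a line (0 of 16 each), beside 0.159% of 15678 genes for 231K and 0.0765% for 232P. With these backgrounds, fewer than 1 lost or gained gene is the background level in 16 genes, so the zeros say little. Of the 13 genes with a mark in 1 to 5 lists, 6 had it in a single list, such as GRIN1 and GRM4 in 232P replicate 1 and GABRG3 in WT replicate 2. GRIN3B, GRM6, GRM8 and GLRA3 had it in 5 lists.

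The covered length of the receptor genes followed that of the lists. Added over the 38 genes, with bases shared by overlapping genes counted for each, it was 906 and 1262 kb in WT, 896 and 1388 kb in 231K, and 253 and 981 kb in 232P. The means were 1084 ± 251 kb in WT, 1142 ± 348 kb in 231K and 617 ± 515 kb in 232P (SD, n = 2). Relative to WT, the mean was 1.05 times as large in 231K, 0.569 times in 232P and 0.811 times in all 4 Tau-KO lists, each within the spread between replicates. Within replicate number 1, 231K had 0.989 times and 232P 0.279 times the length of WT, and within number 2 these were 1.10 and 0.778. The same ratios for the whole lists were 0.921 and 0.329, and 1.03 and 0.749. Without 232P replicate 1, the ratio of 232P to WT was 0.906, and without 232P replicate 2 it was 0.233. As a share of the covered length of each list, the receptor genes held 0.424% and 0.446% in WT, 0.456% and 0.478% in 231K, and 0.360% and 0.464% in 232P, so that the ratio of the Tau-KO mean to the WT mean became 1.01.

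At the starts the lists differed less. The TSS windows of the 38 genes held 39.3 and 38.8 kb of peaks in WT, 35.0 and 40.4 kb in 231K, and 27.7 and 31.4 kb in 232P. Their mean was 0.966 times that of WT in 231K and 0.757 times in 232P. Both 232P lists thus lay below both WT lists here. Gene by gene this held for GRIK1, GRIK3, GRIN2A and GRM5, or 4 of 26 with any TSS mark, beside 36% of all such genes. GRIN2A had 5174 bp or more in WT and 3028 bp or less in 232P. In the genes as a whole, 232P replicate 2 lay between the WT lists.

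Tested gene by gene, no receptor gene was apart between the Tau-KO and the WT lists. Of the 28 receptor genes with any peak, 0 had a covered length below both WT lists in all 4 Tau-KO lists, beside 8.61% of 4775 genes, and 0 had one above, beside 0.209%. The exact permutation test of 4 against 2 lists cannot give a p below 0.0667. No receptor gene reached that value, beside 4.25% of the 4775 genes. For GRIN2B it gave p = 0.733 (exact permutation test, two-sided, adjusted p = 1 over 4775 genes), and for GABRA6 p = 0.400. By the same test 0 of the 4775 genes had an unadjusted p under 0.05, which this design cannot reach. In 232P alone, GRIN2A, GRIN2B, GRM3 and GLRA1 lay below both WT lists in both replicates, beside 37.9% of all genes tested, and 0 lay above, beside 0.796%. In 231K alone, GRIN3B did so, with 0.745 and 1.37 kb against 1.62 and 1.95 kb in WT, beside 11.6%, and 0 lay above, beside 4.73%.

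Since samples of the same replicate number deviated together, genes were also compared within the numbers. GABRB2, GABRA6 and GRM3 had less cover in each Tau-KO list than in the WT list of the same number, beside 20.4% of genes. GABRB2 had 59.1 kb in WT against 55.4 and 8.81 kb in 231K and 232P in number 1, and 92.6 kb against 84.3 and 70.3 kb in number 2. GRM8 had more in each, beside 0.524% of genes, with 0 kb against 0.749 and 0.859 kb in number 1, and 1.79 kb against 3.57 and 2.90 kb in number 2. The GRM8 values rest on 4 or fewer peaks outside the starts in a list and on a WT list without any peak. As a share of each list, GRIK3 was higher in all 4 Tau-KO lists than in both WT lists, beside 2.22% of genes, and 0 receptor genes were lower, beside 4.25%. Line by line, this share was higher than in both WT lists at GRIK1, GRIK3 and GABRA4 in 231K, beside 9.38%, and at GRIK3, GRIN3A and GRM8 in 232P, beside 11.2%. It was lower at GRIN3B in 231K, beside 11.7%, and at GLRA1 in 232P, beside 12.4%. The covered length of GRIK3 was 14.9 and 19.0 kb in WT, 18.8 and 36.2 kb in 231K, and 12.5 and 24.3 kb in 232P, so the groups overlapped on that scale.

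Genes that work with the receptors were counted from a list of 50 auxiliary subunits, scaffolds, transporters and other receptors. A TSS mark in all lists was present at 13 of them (26%), beside 10.8% of all genes, and 24 of the 50 had no peak, beside 75%. The transporters had 5 of 12, the auxiliary subunits 4 of 14, the postsynaptic scaffolds 3 of 20 and the other receptors 1 of 4. SLC1A3, the glial glutamate transporter, had the longest covered starts, with 15997 and 20010 bp in WT, 14822 and 19234 bp in 231K, and 7196 and 16961 bp in 232P. DLGAP1, a scaffold protein of excitatory synapses, and SLC1A6, a glutamate transporter of Purkinje cells, came next with medians of 12348 and 8549 bp. None of the 16 that were marked in both WT lists lost the mark in both lists of a line, beside 2.13% of all genes in 231K and 5.42% in 232P, and none of the 33 marked in neither WT list gained one, beside 0.159% and 0.0765%.

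The labelled cell line was checked at genes of sympathoadrenal identity. No peak lay at a start of PHOX2A, HAND2, GATA3, GATA2, ISL1, TH or DBH in any list. H3K27me3 alone does not show whether a gene is expressed.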

How the data were processed

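Per the labels, chromatin of SH-SY5Y cells was precipitated with an H3K27me3 antibody in 2 biological replicates of WT, 231K and 232P. The 6 input samples were not analysed here. After trimming, the authors aligned reads to hg38 (BWA) and ran MACS version 2 on every sample by itself. Their methods name the broadPeak setting, whereas the deposited files are laid out as narrowPeak, with 10 columns. They also hold more peaks per sample than the methods give, so the setting behind them is uncertain. The threshold, the control library and the treatment of duplicates are not given in the sources used here. The deposited fold enrichment is a ratio, summit reads plus 1 over background reads plus 1. The deposited -log10 p-value and -log10 q-value belong to the summit. The score deposited with them equals the latter times 10.

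Peaks were joined to GENCODE release 44 with a minimum overlap of 1 bp (python 3.11.15, numpy 2.4.6, pandas 2.3.3, scipy 1.17.1, matplotlib 3.10.9). The lists held 285826 and 222191 peaks in WT, 271413 and 212347 in 231K, and 147118 and 199677 in 232P, over 214 and 283 Mb, 197 and 290 Mb, and 70.3 and 212 Mb. Fold enrichment and p-value together gave back the summit height in whole reads, within 0.001 of the -log10 p-value, for 100% of the peaks. The lowest background (1.01 to 1.52 reads) over the smallest width gave the relative depth. The number of reads is unknown, so no counting interval can be given, and a missing peak means only that none passed at that depth. The smallest peak width was 175 to 179 bp in replicates 1 and 240 to 262 bp in replicates 2.

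Peak lists hold no read counts, so the differential binding test of the authors was not run. Genes were compared by presence of TSS marks in both lists of a genotype and by covered length, with an exact permutation test of 4 Tau-KO against 2 WT lists over all genes with a peak and Benjamini-Hochberg adjustment. Same-numbered samples deviated together in covered percent, on a log2 scale with 1 added (correlations of 0.240, 0.288 and 0.189 over 4775 genes), so the numbers were taken as pairs. Recovered summit heights, covered lengths, TSS marks and the permutation test were first tested on simulated data. So were the calls of lost, gained and apart genes. The simulations did not cover the other steps.

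The receptor genes and the other gene lists were chosen with earlier results of these data known. For 2 genes of the list of cell line markers, the result is not reported here, so the genes given are not the whole list. Values per list were to be given for the 8 genes with the longest covered starts, those lost, gained or apart, up to 6 genes without a TSS mark, and the longest and shortest of each class. GRIN3A, GRIN3B, GRM3, GRM6, GRM8, GRIK3, GRIA2 and the values of other genes outside this rule were added after they were seen. Promoter sequences are from RefSeq, which matched 33 of 38 genes. Settings also tried were -log10 q-values from 5 upwards, a q-value under 0.05, an equal number of strongest peaks (147118), a TSS window of 2.5 kb, the canonical start only, 50% of a window covered, peaks merged within 1 kb, the share of the list, the replicate block and leaving out each list.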

Additional observations from a re-analysis of the deposited data

How the results depend on the processing

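Of the values recomputed under the alternatives that left out no list, 62 of 72 stayed within 1.5 times the reported count or within the spread between replicates. Of those recomputed with a list left out, 52 of 66 did. The spread is wide. The covered length of 232P to WT went from 0.569 to 0.945 as a share of the list, which counts as within it (SD 0.475). Keeping peaks with -log10 q-values from 5 upwards, the genes with a TSS mark in all lists numbered 3 (GRIN2B, GABRA2 and GABRB2), 2 genes of 12 (GABRA4 and GABRG1) had lost theirs in 232P, beside 17.9% of all genes, and the ratio of covered length of 231K to WT was 1.40. The 2 losses are of genes whose marks all 6 lists hold at the deposited threshold. With 50% of a TSS window covered, 5 genes were marked in all lists and 10 in both WT lists, beside 587 and 1493 of all 19103 genes. With the canonical start only, GLRA3 made 1 gene gained in 231K. With peaks merged within 1 kb, GRIN3A made 1 gene with less cover in all Tau-KO lists, and as a share of the list GRIK3 made 1 with more. With the replicate block, 3 genes had less and 1 more, and the block moved no other value past these limits. For the counts with the canonical start and with merged peaks, no share of all genes is at hand.

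Leaving out each list in turn gave 0 to 2 genes lost and 0 to 1 gained in 231K, and 0 to 2 lost and 0 to 2 gained in 232P. The genes with less cover in all remaining Tau-KO lists ranged from 0 to 9, with 9 without WT replicate 1, 3 without 231K replicate 2 and 2 without WT replicate 2, and those with more from 0 to 1. A single list then stands for its genotype, so these counts are looser. No share of all genes is at hand for them, so they show nothing particular to the receptor genes. The ratio of covered length to WT ranged from 0.826 to 1.28 for 231K, from 0.233 to 0.906 for 232P and from 0.655 to 1.00 for all Tau-KO lists, and the genes marked in all lists from 13 to 15. There were 2 lists per genotype, of unequal depth, which limits what the presence or absence of a peak can show.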
